A study of Mus musculus with 2 samples.

Results

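S100 and annexin transcripts were followed across the cells of an orthotopic mouse glioma, as 10 genes out of the 27998 listed in both count matrices. The genes were matched by symbol and were S100a4, S100a6, S100a8, S100a9, S100a10, S100a11, Anxa1, Anxa2, Anxa3 and Anxa5. Most of them are abundant in the tumour cells, so a value in another cell type can come from that cell or from tumour RNA carried over into its droplet, and each class of cells was therefore set beside an estimate of the RNA carried over.

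The material was brain tissue of Kunming mice bearing G422 glioma, a transplantable mouse glioma line, with 1 droplet library per group. The LTS library came from long-term survivors, mice that had lived over 100 days after combined therapy and were then given the tumour again on the other side of the brain, after which, by the labels, they again lived over 100 days. Untreated mice with a single inoculation gave the Control library. Both were labelled as taken on day 7 after inoculation, and for LTS the sources used here do not make plain which inoculation is meant. How many animals each library pooled is not stated in the sources used here. The LTS mice differ from the Control mice in therapy, in a second inoculation and, by their survival, in age, and these cannot be told apart. Cells were taken from a Percoll interphase named for its immune cells, so the shares of cell types are those of that fraction.

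S100 proteins are small calcium-binding proteins that act mostly as dimers, inside the cell on the cytoskeleton and membranes and, for some, outside it as danger signals. Annexins bind membrane phospholipids when calcium rises and serve in membrane repair, vesicle traffic and the resolution of inflammation. The families meet in fixed partnerships, since S100a10 binds annexin A2 and S100a11 binds annexin A1. In brain tumours, members such as S100a4 and Anxa2 are known from mesenchymal-like tumour cells, while S100a8 and S100a9 are among the main proteins of neutrophil cytosol.

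A barcode was taken as a cell with at least 1000 UMIs (unique transcript counts), at least 300 genes and at most 15% mitochondrial UMIs, which left 4835 LTS and 8310 Control cells at a median of 18779 and 14889.5 UMIs. The libraries held 149413534 UMIs for LTS and 165796852 for Control, and 13 cell barcodes were found in both. Clusters were named from marker genes with the S100 and annexin genes kept out of the clustering. Tumour-like cells numbered 2607 in LTS and 5152 in Control, microglia-like cells 631 and 747, monocyte or macrophage-like cells 237 and 444, T cell-like cells 474 and 87, and endothelial-like cells 69 and 129. A cluster with both immune and tumour genes (86 LTS and 214 Control cells) and the unnamed clusters (559 and 1453 cells) were kept apart. With 1 library per group no difference has a replicate check, no test was possible, and every interval below is a 95% interval of counting error only.

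Levels are in CPM, the UMIs of a gene per 1000000 UMIs of the class. They come from tags at the 3' end and are not per length, so they are compared between classes and libraries for 1 gene and not between genes. A gene was compared between the libraries where it reached 20 CPM in either, and a difference was counted where the log2 ratio of LTS over Control, with 5 CPM added to both, was at least 2-fold.

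In tumour-like cells 8 of the 10 genes reached 20 CPM, and none of them was 2-fold apart between LTS and Control, where 0.171% of all 6419 genes compared were. S100a6, which binds annexins and is high in many dividing cells, reached 6453 CPM (6438 to 6469) in LTS and 6014 CPM (6000 to 6029) in Control. Its level per cell had a median of 6460 CPM in LTS and 6023 CPM in Control, so the sum was carried by the whole class and not by a few cells. S100a4, a partner of non-muscle myosin linked to cell motility, reached 712 CPM (707 to 717) in LTS and 664 CPM (660 to 669) in Control. Both were 1.07-fold higher in LTS, the upper end of the members' ratios in this class.

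Anxa5, the phosphatidylserine binder used as a probe of dying cells, had the lowest ratio in tumour-like cells, with 297 CPM (293 to 300) in LTS and 344 CPM (341 to 347) in Control. Its log2 ratio was -0.21, beside -0.13 for Anxa1, the glucocorticoid-induced inhibitor of phospholipase A2, with 580 CPM in LTS and 637 CPM in Control. These differences lie outside the counting intervals and are still under 1.2-fold, and without a second library they cannot be set against the spread between mice. S100a10, S100a11 and Anxa2, which form the S100 and annexin complexes at the membrane, each differed by under 1.03-fold between the libraries. S100a10 had 748 CPM in LTS and 744 CPM in Control, S100a11 had 401 and 409 CPM, and Anxa2 had 260 and 265 CPM. Anxa3, a less studied annexin, had 52.6 CPM in LTS and 55.8 CPM in Control. The median log2 ratio of the 8 genes was -0.03, beside -0.01 over all genes compared.

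S100a8 and S100a9, the subunits of calprotectin, were near the floor in tumour-like cells. S100a8 had 1.42 CPM in LTS and 1.48 CPM in Control. S100a9 was counted 6 times in LTS and 22 times in Control, over 107161377 and 110403654 UMIs of the class.

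**Figure D1:**
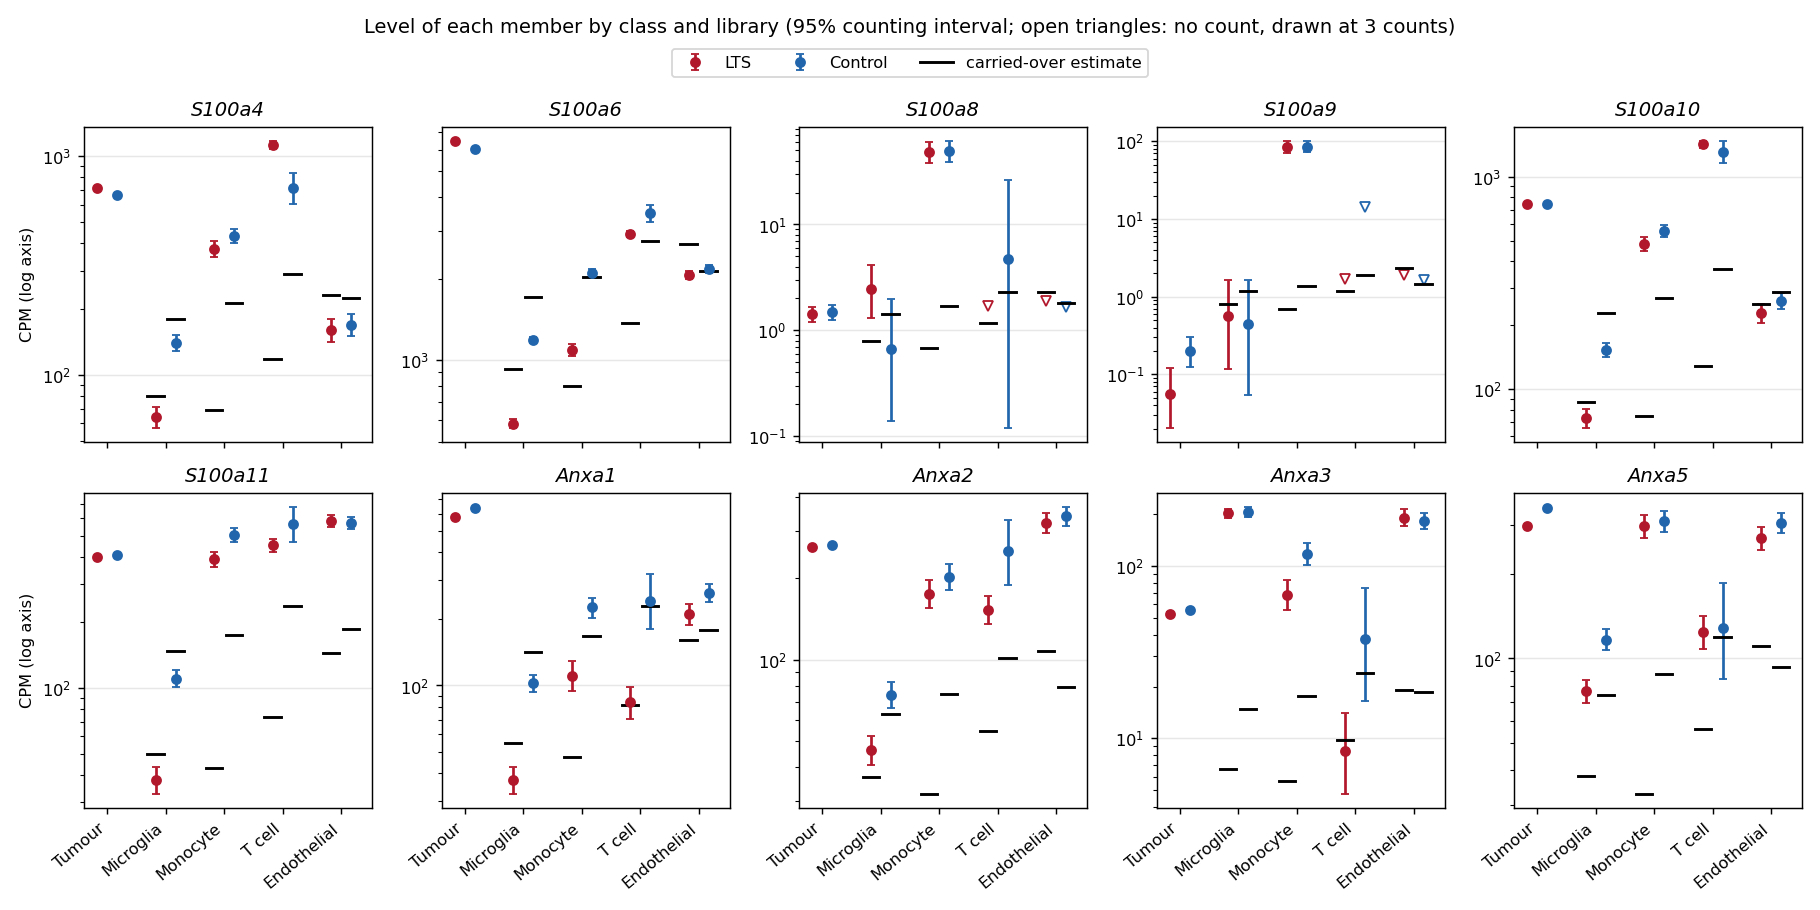
Level of each of the 10 genes in CPM (log axis) in 5 classes of cells, with LTS (red) left of Control (blue). Bars are 95% counting intervals, and open triangles mark a class with no count and are drawn at 3 counts. Black dashes are the level estimated as carried over, a share of the level in uncalled barcodes. S100a6 is highest in tumour-like cells, S100a4 and S100a10 are highest in T cell-like cells, Anxa3 is highest in microglia-like and endothelial-like cells, and microglia-like S100a4, S100a6, S100a10, S100a11 and Anxa1 lie below their dashes in both libraries.

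Among the tumour-like cells the 8 genes compared varied over 8 clusters in a similar order in both libraries. S100a4 was highest in cluster 2, which is led by the matrix genes Aspn, Postn and Mgp, with 1160 CPM in LTS and 1043 CPM in Control. Cluster 2 also had 5 raised fibroblast markers, with Col1a1 among its leading genes. It was not named for them because more of the tumour genes were among its leading genes. S100a4 was lowest in cluster 5, led by Klra4 and Syt7, with 382 CPM in LTS and 410 CPM in Control. That is a 3.04-fold range within LTS and a 2.55-fold range within Control, wider than the 1.07-fold difference between the libraries. S100a6 spanned the same clusters, from 8862 to 4826 CPM in LTS and from 7933 to 4945 CPM in Control.

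Anxa1 also had its highest and lowest level in clusters 2 and 5, with 929 and 387 CPM in LTS and 971 and 466 CPM in Control. Anxa5 ranged from 391 CPM in cluster 2 to 233 CPM in cluster 5 of LTS, and from 430 to 282 CPM in those of Control. S100a10 ran the other way, with its highest level in cluster 5, with 914 CPM in LTS and 878 CPM in Control, and its lowest in cluster 12, with 565 and 625 CPM. Anxa2, the binding partner of S100a10, spanned 1.31-fold in LTS and 1.24-fold in Control, a narrower range than any other of the 8 genes. These ranges describe clusters built from other genes of the same cells and carry no test.

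**Figure D2:**
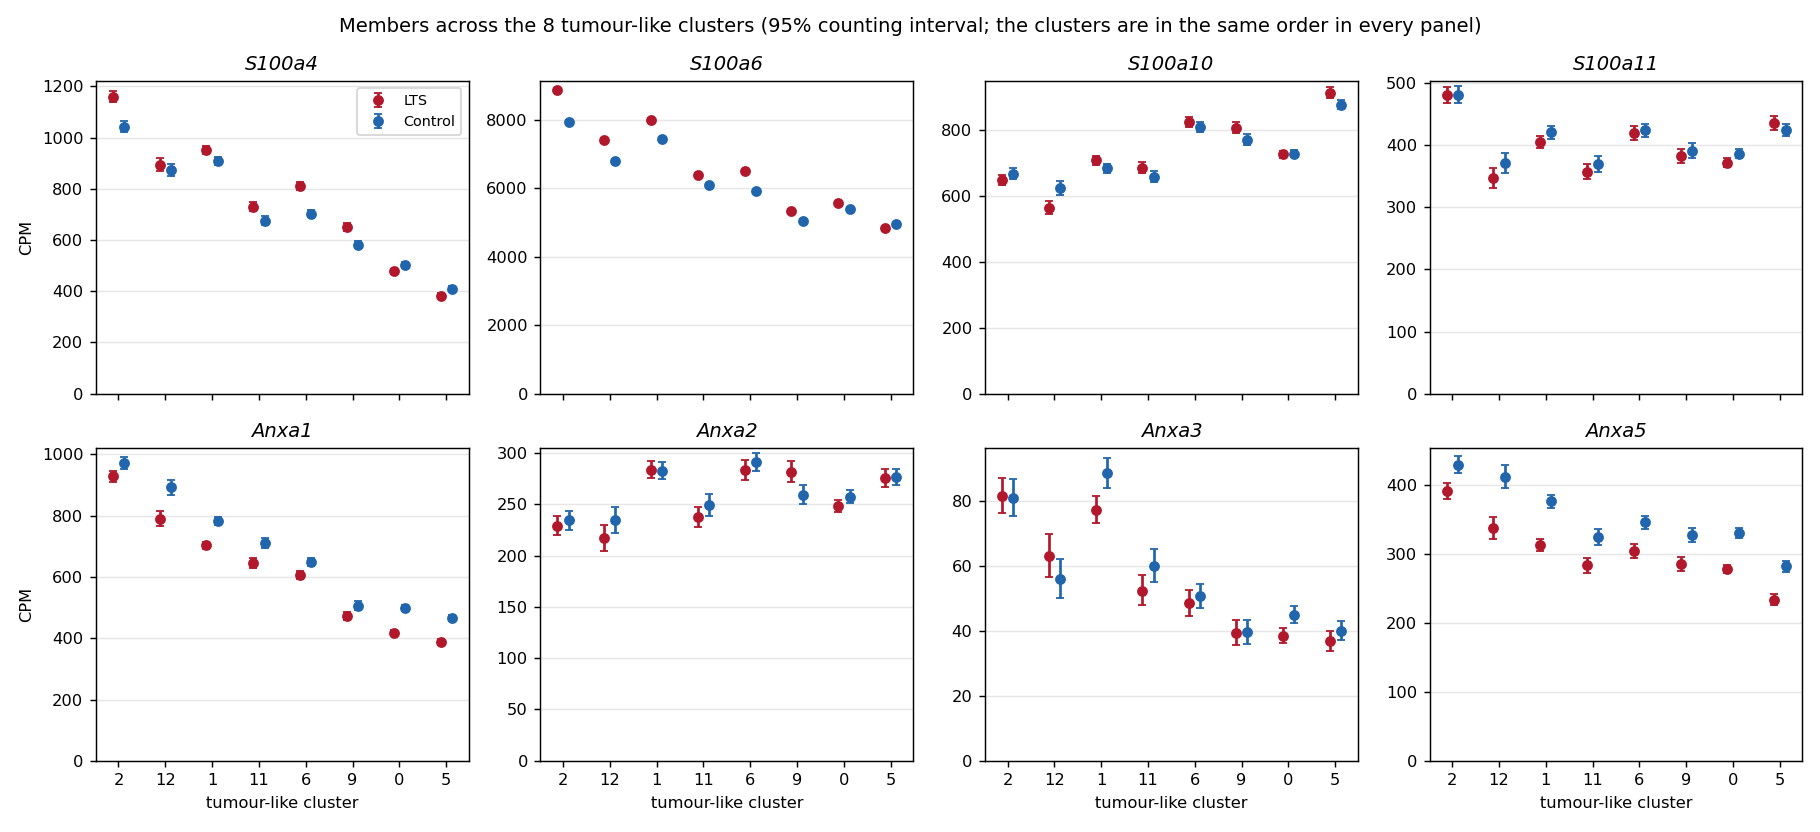
Level in CPM of 8 genes in each of the 8 tumour-like clusters, LTS (red) left of Control (blue), with 95% counting intervals and each axis starting at 0. S100a4, S100a6, Anxa1 and Anxa5 fall from cluster 2 to cluster 5 in both libraries, S100a10 is highest in cluster 5, and Anxa2 is nearly level.

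The sequences just upstream of 4 genes graded in this way are shown so that they can be read side by side. S100a4 and S100a6 lie close together on mouse chromosome 3 (mm10, GENCODE M21), at chr3:90603771-90606045 and chr3:90612882-90624181, both on the plus strand. Anxa1 is at chr19:20373428-20390944 and Anxa5 at chr3:36448923-36475894, both on the minus strand. The RefSeq start of Anxa1 lies 273 bases inside the GENCODE gene, so its window is within that span. Each line gives the 120 bases before the RefSeq start on GRCm38.p6, 5′ to 3′ on the strand of the gene, with TATAAA in capitals.
S100a4 (plus strand, chr3:90603650-90603769): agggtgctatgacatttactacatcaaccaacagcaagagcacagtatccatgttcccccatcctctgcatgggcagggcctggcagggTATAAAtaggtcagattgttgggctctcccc
S100a6 (plus strand, chr3:90612774-90612893): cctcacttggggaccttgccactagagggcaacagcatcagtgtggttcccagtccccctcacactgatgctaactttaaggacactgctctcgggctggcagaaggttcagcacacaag
Anxa1 (minus strand, chr19:20390672-20390791): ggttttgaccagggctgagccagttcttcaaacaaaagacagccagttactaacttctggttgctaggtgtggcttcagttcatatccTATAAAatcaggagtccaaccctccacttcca
Anxa5 (minus strand, chr3:36475888-36476007): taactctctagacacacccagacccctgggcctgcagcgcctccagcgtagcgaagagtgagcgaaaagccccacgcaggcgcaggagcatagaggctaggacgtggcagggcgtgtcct
TATAAA stands close before the start in S100a4 and Anxa1 and is not in these windows of S100a6 and Anxa5. Searched on either strand over the 250 bases before the start, it was found in 12.4% of 32851 mouse promoters, and in neither S100a6 nor Anxa5. Promoter entries were matched for 8 of the 10 genes, all but S100a10 and Anxa3. Of the 8, S100a4, S100a8, Anxa1 and Anxa2 held TATAAA, and Anxa2 was nearly level over the clusters. TGACTCA, the AP-1 site, was found in the promoters of S100a11 and Anxa2 and in 4.46% of all promoters. A match is a run of letters and no evidence of binding.

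The carried-over share of a class was estimated from 10 tumour genes (Rhox5, Pbld2, Mgp, Postn, Scx, Crabp2, Tpm2, Cenpv, Col4a1 and Col4a2), as their summed level in the class over that in uncalled barcodes of 200 to under 1000 UMIs. This takes all of their UMIs in the class to be carried over, as free RNA or in a droplet shared with a tumour cell, which cannot be told apart here. The uncalled barcodes numbered 45260 in LTS and 53691 in Control. The share was lower in LTS than in Control in every immune class: 10.96% and 20.8% in microglia-like cells, 9.45% and 24.6% in monocyte or macrophage-like cells, and 16.2% and 33.5% in T cell-like cells. In endothelial-like cells it was 31.8% and 26.1%, from the 8 genes left without the collagens that these cells make themselves. A member's estimated level is that share of its own level in the uncalled barcodes. That level can differ from the one in tumour-like cells. In Control S100a10 had 1094 CPM and S100a11 712 CPM in the uncalled barcodes, well above their tumour-like levels. In LTS they had 793 and 454 CPM, nearer to those levels, and Anxa1 had 502 CPM, below its tumour-like level.

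In microglia-like cells, the resident macrophages of the brain, 5 of the 8 genes compared were at least 2-fold lower in LTS than in Control. Over all 6416 genes compared in this class, 0.468% were lower by as much and 0.655% were apart in either direction. The 10 tumour genes were lower too, with a summed 269 CPM in LTS and 695 CPM in Control (log2 ratio -1.37), and all 6 of them that could be compared were lower. The 5 members were also below their carried-over estimate in both libraries. The calls depend on the scaling: with the mean of CPM per cell 1 member, S100a11, was 2-fold lower, and with the estimate subtracted none was, since nothing was left of the 5 in either library.

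S100a11 had the lowest ratio, with 37.7 CPM (32.7 to 43.3) in LTS and 110 CPM (101 to 121) in Control, beside estimates of 49.8 CPM in LTS and 148 CPM in Control. Anxa1 was 2.74-fold lower in LTS (2.32 to 3.25), with 37.3 CPM in LTS and 102 CPM in Control beside estimates of 55.0 and 142 CPM. S100a4 was 2.19-fold lower (1.92 to 2.50), with 63.9 CPM in LTS and 140 CPM in Control beside estimates of 80.0 and 179 CPM. For all 3 the level was 0.68 to 0.80 of the estimate in both libraries. S100a6 was 2.03-fold lower (1.94 to 2.13), with 583 CPM in LTS and 1185 CPM in Control, 0.63 and 0.69 of the estimate. S100a10 was 2.10-fold lower (1.85 to 2.39), with 72.9 CPM in LTS and 153 CPM in Control, 0.84 and 0.67 of the estimate.

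The share of cells with S100a4 was lower in LTS too. After each cell was thinned to 1000 UMIs, which left out no cell, S100a4 was found in 7.92% of the microglia-like cells of LTS and 17.1% of those of Control, and before thinning in 38.2% and 55.3%. The median depth of these cells was 6408 UMIs in LTS and 5573 in Control. Tumour-like cells, with median depths of 40516 UMIs in LTS and 20328 UMIs in Control, had thinned shares of 45.1% and 44.4%, and 96.3% and 98.0% before thinning.

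Anxa3 stood apart from the other members in microglia-like cells. It had 203 CPM (191 to 216) in LTS and 207 CPM (194 to 221) in Control, 30.8 and 13.9 times its estimate, and 338% and 289% of its level in uncalled barcodes. Its log2 ratio between the libraries was -0.02. After thinning the gene was found in 15.4% of these cells in LTS and 18.6% in Control, while in T cell-like cells it was found in 1.05% and 5.75%. Before thinning the shares were 60.9% and 61.7% of microglia-like cells and 2.95% and 9.20% of T cell-like cells, whose median depths were 3223 UMIs in LTS and 1934 UMIs in Control.

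Anxa5 was 2.01 times its estimate in LTS microglia-like cells and 1.57 times in Control, with 76.3 CPM in LTS and 117 CPM in Control. Anxa2, a plasminogen and tPA receptor with S100a10, was 1.25 and 1.17 times its estimate, with 46.3 and 74.2 CPM. In all, 2 of 8 members in LTS (Anxa3 and Anxa5) and 1 of 8 in Control (Anxa3) were at least 2-fold above the estimate. Over all genes at 20 CPM or more in the class or in the uncalled barcodes, 92.0% in LTS and 89.4% in Control were.

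The tumour genes themselves show how far the estimate can be off for a single gene. In LTS microglia-like cells they lay between 7.06% (Rhox5) and 19.2% (Pbld2) of their level in uncalled barcodes, and in Control between 13.7% (Rhox5) and 42.1% (Col4a2). Of the 8 members, 5 in LTS and 7 in Control fell inside that range. In LTS S100a6 was just under it, at 6.89%, and Anxa5 was above it, at 22.0%, and Anxa3 was above it in both libraries.

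**Figure D3:**
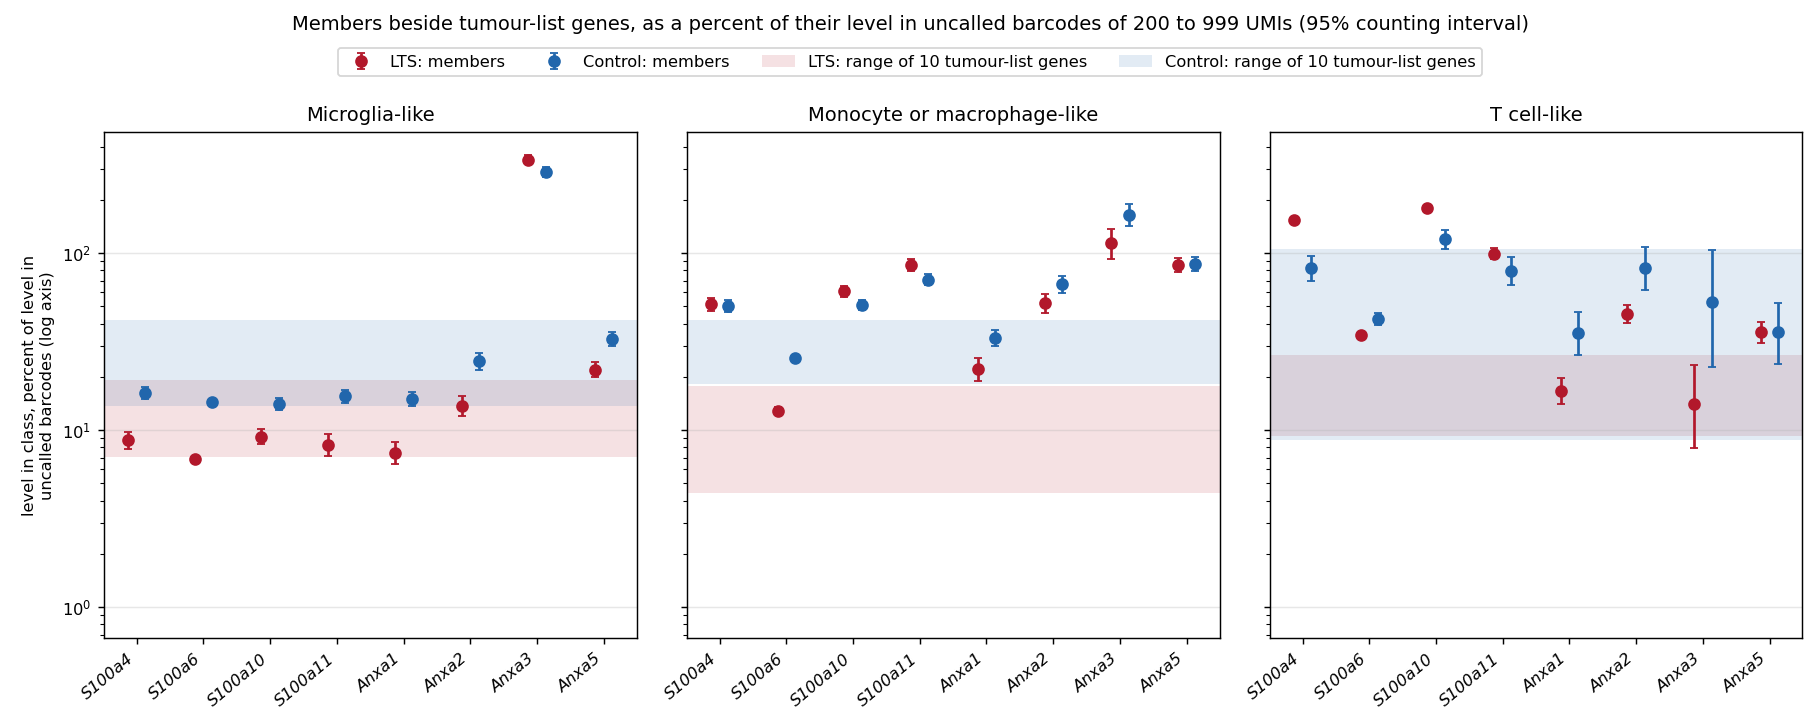
Level of 8 genes in 3 classes as a percent of their level in uncalled barcodes of 200 to under 1000 UMIs (log axis), LTS (red) left of Control (blue), with 95% counting intervals. Shaded bands span the 10 tumour genes of each library. In microglia-like cells the members other than Anxa3 lie in or near the bands, while in LTS T cell-like cells the members other than Anxa1 and Anxa3 lie above the LTS band and in Control S100a10 alone lies above its wider band.

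Microglia-like cells came from cluster 4 (407 LTS and 739 Control cells) and cluster 14 (224 and 8 cells). Within cluster 4 alone S100a4 had 49.9 CPM in LTS and 140 CPM in Control, S100a6 had 484 and 1179 CPM, and Anxa3 had 214 and 207 CPM. The log2 ratios of the 5 lower members within cluster 4 lay between -1.62 (Anxa1) and -1.25 (S100a10), and that of Anxa3 was 0.04. Cluster 14 of LTS had 156 CPM of S100a4 and 135 CPM of Anxa3, at a carried-over share of 19.3%.

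In monocyte or macrophage-like cells all 10 genes reached 20 CPM, and none was 2-fold apart, where 2.41% of all genes compared were. As counted, all 10 had a log2 ratio below 0, as did 55.5% of all genes, with a median of -0.21 beside -0.05 over all genes. The direction turned for 7 of them with the carried-over estimate subtracted, where S100a6 was at 1.92, S100a10 at 0.49 and S100a4 at 0.46, and S100a8, S100a9 and Anxa3 stayed below 0. The 10 tumour genes had a summed 232 CPM in LTS and 823 CPM in Control. Anxa1 had the lowest ratio, with 111 CPM (94.7 to 129) in LTS and 225 CPM (203 to 250) in Control, at 2.33 and 1.34 times its estimate. Its log2 ratio of -0.99 lies just inside the threshold.

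S100a6 had 1089 CPM in LTS and 2094 CPM in Control in this class, 1.36 and 1.04 times its estimate, so in Control the level was nearly that estimated as carried over. S100a4 had 376 CPM (346 to 408) in LTS and 433 CPM (402 to 467) in Control, beside estimates of 69.0 and 212 CPM. S100a10 had 482 CPM in LTS and 558 CPM in Control, beside estimates of 75.0 and 269 CPM. S100a11 had 390 and 503 CPM, beside estimates of 43.0 and 175 CPM. The last 3 were above their estimates by 2.04-fold or more in both libraries.

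The annexins of this class other than Anxa1 were at least 2-fold above their estimates in both libraries. Anxa2 had 176 CPM in LTS and 203 CPM in Control, and Anxa5 had 297 and 309 CPM. Anxa3 had 68.4 CPM in LTS and 118 CPM in Control. Counted together, 9 of 10 members in LTS and 8 of 10 in Control were at least 2-fold above the estimate, where 91.6% and 82.7% of all genes were, which puts the members' shares near those of all genes.

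S100a8 and S100a9 were compared in this class alone, and their counts came from few cells. S100a8 had 48.2 CPM (37.8 to 60.5) in LTS and 49.5 CPM (39.2 to 61.6) in Control, and S100a9 had 84.0 CPM (70.1 to 99.8) and 85.8 CPM (72.0 to 101). S100a8 was found in 27 of 237 LTS and 26 of 444 Control cells. S100a9 was found in 6 of 237 LTS and 9 of 444 Control cells, which held 129 and 137 UMIs of it. Those cells were small, with medians of 1190.5 UMIs in LTS and 1091 UMIs in Control, and 5 of 6 and 9 of 9 had under 2000 UMIs.

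Markers of another cell type moved with S100a9 there. In the cells with an S100a9 UMI the 12 neutrophil genes summed to 5882 CPM in LTS and 4352 CPM in Control, with 9 and 7 of the 12 genes found. The monocyte genes summed to 5126 and 1419 CPM, with a median of 1 UMI per cell in both libraries. S100a8 did not follow this throughout. Cells with S100a8 and no S100a9 UMI numbered 21 in LTS and 18 in Control, with medians of 5768 and 3068 UMIs. They held 27 and 23 UMIs of S100a8. In them the neutrophil genes summed to 158 and 164 CPM and the monocyte genes to 27929 and 16040 CPM. In the cells with neither S100a8 nor S100a9 the neutrophil genes summed to 215 CPM in LTS and 145 CPM in Control, and the monocyte genes to 13011 and 10450 CPM. Their part in the result was not tested. Among monocyte or macrophage-like cells of 2000 or more UMIs, S100a8 had 18.6 CPM in LTS and 14.3 CPM in Control, and S100a9 had 4.00 CPM in LTS, with no count in Control.

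In T cell-like cells 8 of the 10 genes were compared, and 2 of them, Anxa1 and Anxa3, were at least 2-fold lower in LTS. Anxa3 reached 20 CPM in Control alone, so a call for it could only be lower in LTS. With 87 Control cells the class is thinly counted, and 13% of all genes compared were 2-fold apart and 7.95% were lower in LTS, so 2 of 8 is read against a wide background. S100a4 ran the other way, with 1125 CPM (1076 to 1175) in LTS and 712 CPM (602 to 835) in Control, 1.58-fold higher in LTS (1.34 to 1.88). It was 9.52 times its estimate in LTS and 2.46 times in Control.

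S100a10, which also carries ion channels to the cell surface, had 1419 CPM (1364 to 1475) in LTS and 1310 CPM (1160 to 1474) in Control, 11.1 and 3.57 times its estimate. After thinning it was found in 73.6% of LTS and 67.8% of Control T cell-like cells, and before it in 93.0% and 89.7%. In microglia-like cells the thinned shares of S100a10 were 9.67% in LTS and 17.0% in Control. S100a4 was found in 55.9% of LTS and 40.2% of Control T cell-like cells after thinning, and in 78.9% and 63.2% before it. For both genes these shares lie above those of microglia-like cells, where the level was at or below the estimate. S100a11, a partner of annexin A1 in growth control, had 451 CPM in LTS and 565 CPM in Control, above its estimate in both.

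S100a6 had 2929 CPM in LTS and 3492 CPM in Control in T cell-like cells, 2.14 and 1.27 times its estimate. Anxa1 had 83.8 CPM (70.9 to 98.5) in LTS and 242 CPM (180 to 318) in Control, at 1.03 and 1.06 times the estimate, and so stood at the level estimated as carried over in both libraries. Anxa3 was counted 15 times in LTS and 8 times in Control, 8.49 and 38.0 CPM, so its call rests on few UMIs. Anxa2 had 153 CPM in LTS and 251 CPM in Control. Anxa5 had 124 CPM in LTS and 128 CPM in Control, at 2.21 and 1.07 times its estimate.

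At least 2-fold above the estimate were 6 of 8 members in LTS and 4 of 8 in Control T cell-like cells, where 85.5% and 73.2% of all genes were. Single tumour genes lay between 9.21% (Col4a2) and 26.7% (Pbld2) of their level in uncalled barcodes in LTS, with 2 of the 8 members inside that range. In Control they lay between 8.76% (Col4a1, 1 UMI) and 105.5% (Col4a2, 9 UMIs), with 7 of 8 inside and S100a10 above it at 119.8%, so 3 of the 4 Control members lie within the spread of the tumour genes. The 10 tumour genes summed to 397 CPM in LTS and 1120 CPM in Control, with all 9 that could be compared lower in LTS. The ratios of S100a6 and Anxa5 depend on whether the estimate is taken off. Subtracted, their log2 ratios were 1.07 and 2.43, against -0.25 and -0.04 as counted, and that of S100a4 was 1.24 against 0.66. S100a8 was counted 0 times in LTS and 1 time in Control, and S100a9 was not counted in either, where 3 counts would be 1.70 CPM in LTS and 14.2 CPM in Control.

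The T cell-like classes of the libraries differ in make-up, so subsets were set side by side. Cells with a Cd8a or Cd8b1 UMI numbered 266 in LTS and 17 in Control, and held 1224 CPM (1155 to 1296) and 996 CPM (730 to 1329) of S100a4. Cells with a Cd4 UMI and no Cd8 UMI numbered 95 and 15, and held 1169 CPM (1072 to 1272) in LTS and 406 CPM (240 to 641) in Control. The counting intervals thus overlapped in the Cd8 subset and lay apart in the Cd4 subset, where 18 UMIs stand behind the Control value. Cells with a UMI of a Cd3 gene and none of the C1q genes of microglia and macrophages numbered 318 in LTS and 43 in Control, and held 1145 CPM (1085 to 1208) of S100a4 in LTS and 955 CPM (775 to 1164) in Control. In these cells the intervals overlapped, while over the whole class they lay apart.

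**Figure D4:**
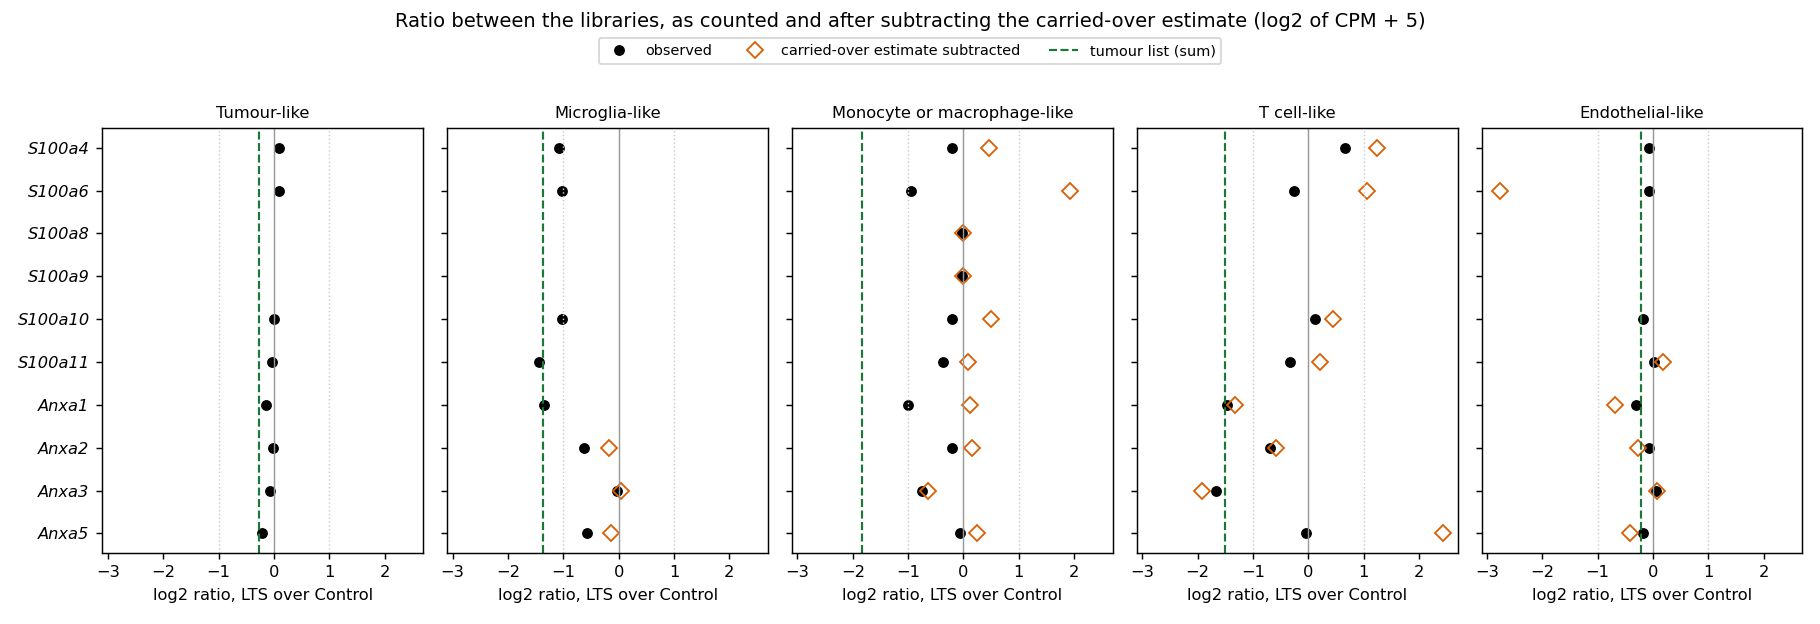
Log2 ratio of LTS over Control (CPM plus 5) for each gene compared in 5 classes. Black points are the ratios as counted, open orange diamonds the ratios with the carried-over estimate subtracted (drawn where a gene was above its estimate in at least 1 library), the dashed green line is the summed tumour list, and dotted lines mark 2-fold. Microglia-like members other than Anxa3 lie left of 0 as counted, and S100a4 in T cell-like cells lies right of 0 both ways.

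In endothelial-like cells none of the 8 genes compared was 2-fold apart, where 0.765% of all genes were. S100a11 had 582 CPM (545 to 621) in LTS and 573 CPM (539 to 609) in Control, at 4.02 and 3.08 times its estimate. Anxa3, which is linked to the growth of vessels, had 192 CPM in LTS and 184 CPM in Control, beside estimates of 19.2 and 18.7 CPM. Anxa2, the endothelial receptor that speeds fibrin clearance, had 321 CPM in LTS and 339 CPM in Control, at 2.99 and 4.28 times its estimate.

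S100a4 and S100a10 were below their estimates in endothelial-like cells, with 160 CPM of S100a4 in LTS and 169 CPM in Control, and 228 and 260 CPM of S100a10. In LTS 1 cell held 25.2% of the S100a4 counts and 18.9% of those of S100a6. S100a6 had 2073 CPM in LTS and 2173 CPM in Control, 0.77 and 1.01 times its estimate. Anxa1 had 211 and 262 CPM, and Anxa5 had 269 and 306 CPM, all above their estimates. Single tumour genes of the 8 used here lay far apart. They were at 14.3% (Tpm2) to 74.8% (Scx) of their level in uncalled barcodes in LTS and 14.6% (Tpm2) to 65.3% (Postn) in Control. In each library 4 of the 8 members lay inside that range. No UMI of S100a8 or S100a9 was counted, where 3 counts would be 1.89 CPM in LTS and 1.65 CPM in Control.

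Other genes of both families and their partners were taken from lists. Of 18 other S100 and annexin genes, 7 were compared in tumour-like cells, 5 in microglia-like, 6 in monocyte or macrophage-like, 6 in T cell-like and 7 in endothelial-like cells, and none was 2-fold apart. Over all genes compared, 0.171%, 0.655%, 2.41%, 13% and 0.765% were 2-fold apart in that order of classes. The median log2 ratios of the family genes were 0.02, -0.01, 0.01, 0.28 and 0.13 in the same order. Anxa6, which is abundant in lymphocytes, had 250 CPM in LTS and 223 CPM in Control T cell-like cells. S100a13, which helps export growth factors, had 225 CPM in LTS and 171 CPM in Control there. S100a16 had 321 CPM in LTS and 261 CPM in Control endothelial-like cells.

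Of 20 receptors and partners, 7, 10, 10, 6 and 9 were compared in those 5 classes, and 1 was 2-fold apart, Pla2g4a in endothelial-like cells, with 7.55 CPM in LTS and 20.9 CPM in Control. Pla2g4a reached 20 CPM in Control alone, and only just. In that class 0.765% of all genes compared were 2-fold apart, and the shares of the other classes are those given above. Ahnak, the scaffold held by the S100a10 and annexin A2 complex, had 400 CPM in LTS and 361 CPM in Control T cell-like cells. Fpr2, the receptor of annexin A1, had 59.3 CPM in LTS and 54.5 CPM in Control monocyte or macrophage-like cells. Esyt1 had 148 CPM in LTS and 80.7 CPM in Control T cell-like cells.

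S100a8 and S100a9 lay mainly in barcodes not taken as cells. Cells held 4.30% of the S100a8 UMIs of LTS and 4.99% of those of Control, and 1.82% and 2.43% of the S100a9 UMIs. For S100a4 the figures were 82.4% and 71.0%, and for Anxa3 82.7% and 74.5%. The level of S100a8 peaked in barcodes of 21 to 50 UMIs, with 8142 CPM in LTS and 14350 CPM in Control, and these held 46.1% and 46.2% of its UMIs. S100a9 peaked there too, with 11298 CPM in LTS and 19034 CPM in Control. The barcodes of 21 to 50 UMIs held 318463 UMIs in all in LTS and 168856 in Control, with 2593 and 2423 UMIs of S100a8. S100a11 was highest in the same barcodes, with a smaller peak of 798 CPM in LTS and 1054 CPM in Control, against 576 and 568 CPM in barcodes of 11 to 20 UMIs. Anxa1 had 565 CPM in LTS and 817 CPM in Control at 21 to 50 UMIs, against 455 and 500 CPM at 11 to 20 UMIs, and Anxa2 had 414 and 509 CPM against 265 and 215 CPM.

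Most of these small barcodes were the same barcodes in both libraries. Of barcodes with over 10 and under 200 UMIs, 1584 in LTS and 1504 in Control held S100a8 or S100a9, and 1327 were in both, which is 83.8% of the LTS and 88.2% of the Control ones. Of all barcodes of that size, 22.4% of the LTS and 38.1% of the Control ones were in both libraries, and of those with neither gene 4500 were, 17.7% of the LTS and 31.3% of the Control ones. Barcodes of that size that held a given other member in both libraries made up at most 4.18% of the LTS ones and 6.08% of the Control ones that held it (S100a11). In the 1327, S100a8 made up 83138 CPM in LTS and 84454 CPM in Control, and S100a9 made up 117423 and 115599 CPM. These barcodes were chosen for holding either gene in both libraries, so high levels of these genes follow in part from the choice.

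Neutrophil genes were high and tumour genes low in these 1327 barcodes. The 12 neutrophil genes summed to 68421 CPM in LTS and 66719 CPM in Control, against 129 and 199 CPM in the barcodes of that size with neither gene. The 10 tumour genes summed to 223 CPM in LTS and 309 CPM in Control, against 2200 and 2461 CPM. Retnlg, a neutrophil gene, had 22280 CPM in LTS and 21855 CPM in Control. Anxa1 had 2118 and 1833 CPM there and S100a11 had 3233 and 3399 CPM, against 427 and 566 CPM and 467 and 494 CPM in the barcodes with neither gene. Of all barcodes of that size, 4744 of 26985 in LTS were cells in Control, and 2664 of 15873 in Control were cells in LTS. Of those with S100a8 or S100a9, only 4 of 1584 and 1 of 1504 were. How the same barcodes came to be in both libraries was not tested.

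**Figure D5:**
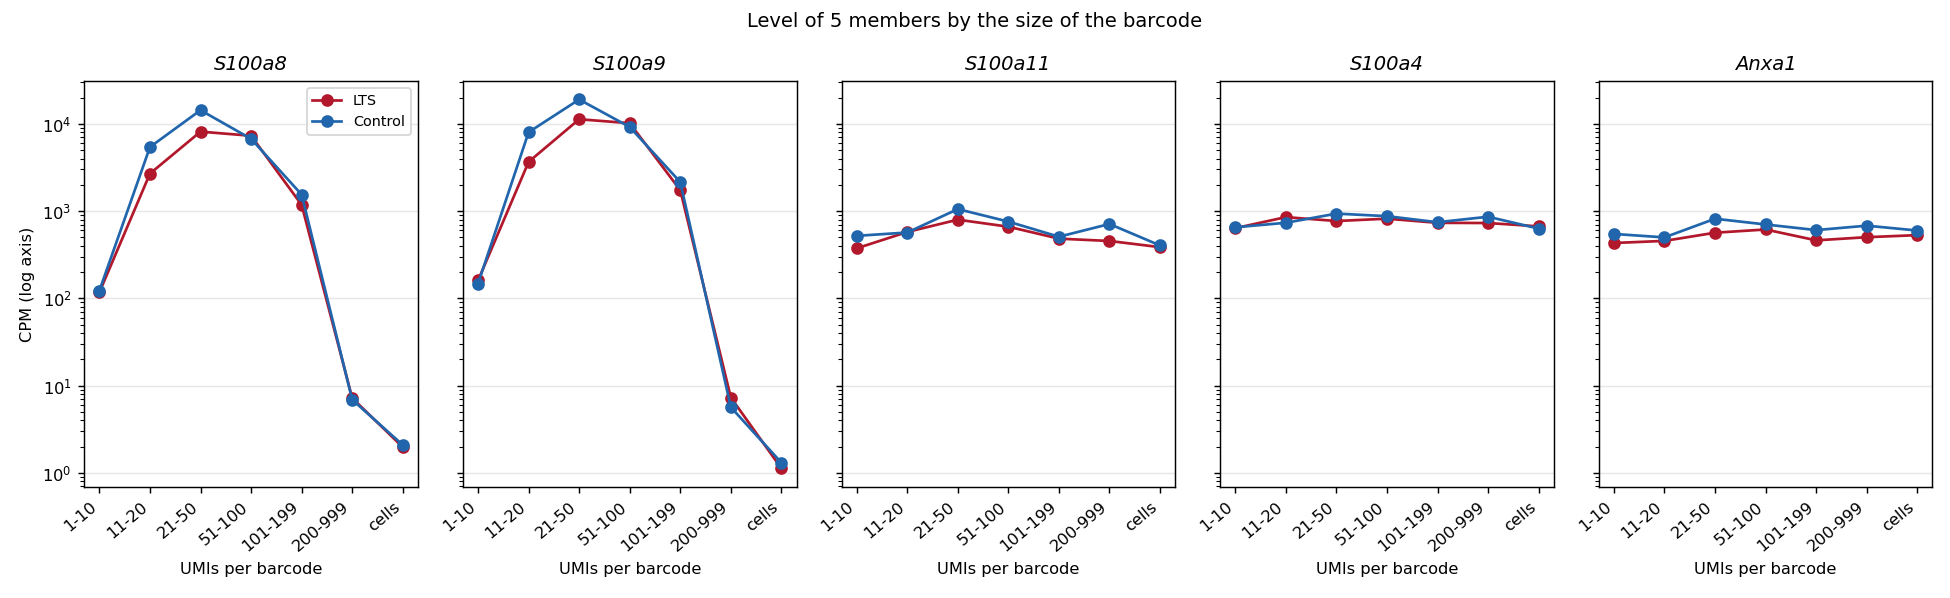
Level in CPM (log axis) of 5 genes by the number of UMIs in the barcode, LTS in red and Control in blue. S100a8 and S100a9 peak at 21 to 50 UMIs and fall to 1.97 and 1.12 CPM in LTS cells and to 2.08 and 1.30 CPM in Control cells, while S100a11 has a smaller peak there and S100a4 and Anxa1 vary less, Anxa1 between 500 and 817 CPM from 11 to 50 UMIs in Control.

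S100a8 and S100a9 also lie close together on chromosome 3 (mm10, GENCODE M21), at chr3:90668978-90670035 on the plus strand and chr3:90692632-90695721 on the minus strand. The sequences before their RefSeq starts are shown because their transcripts were found in the same barcodes. That start of S100a8 lies 93 bases inside the GENCODE gene, so its window is mostly within that span. The windows and capitals are as above (RefSeq, GRCm38.p6).
S100a8 (plus strand, chr3:90668951-90669070): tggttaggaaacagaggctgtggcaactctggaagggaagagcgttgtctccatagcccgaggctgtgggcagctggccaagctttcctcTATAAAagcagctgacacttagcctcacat
S100a9 (minus strand, chr3:90695722-90695841): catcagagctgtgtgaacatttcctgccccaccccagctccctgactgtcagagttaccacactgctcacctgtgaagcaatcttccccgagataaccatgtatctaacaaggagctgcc
TATAAA is in the S100a8 window and not in that of S100a9, which says nothing of what binds there.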

How the data were processed

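The authors deposited unfiltered UMI counts per gene and barcode. Per the file headers they come from Cell Ranger 4, and per the submitters' processing notes from build mm10; no annotation release is named. The 10 genes and all lists were chosen with earlier results of these data known.

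Cells were clustered in both libraries together (scanpy 1.11.5, leidenalg 0.10.2, scikit-learn 1.9.0) on 2000 variable genes, with 30 components, 15 neighbours and Leiden resolution 1, seed 1. A total of 604 LTS and 817 Control barcodes were removed for mitochondrial UMIs. A cell type name needed at least 3 raised markers and no other list with more genes among the leading ones of the cluster. No doublet caller was run. Tumour-like clusters were named by another rule. They had no other name by those rules, though cluster 2 had raised fibroblast markers. They were not low in UMIs and had low Ptprc beside the immune clusters. Their sum of the 10 tumour genes was at least 2-fold that of the immune clusters. The same 10 genes give the carried-over estimate. Counts were summed per class and library and scaled to CPM. Intervals are exact Poisson for levels, exact conditional for ratios and exact binomial (Clopper-Pearson) for shares (scipy 1.17.1), and cover counting error only. No paired analysis was possible because each group has 1 library and no test was made. The summing and estimating steps were run on simulated data. The simulated cells had no tumour-gene RNA of their own, and their carried-over RNA was drawn from the same uncalled profile. Recovery of the share was thus built in, so the run checks the arithmetic and not the assumption behind the estimate. The named genes are the 10 members, the listed family and partner genes, and the 3 genes with the most similar pattern. Alternatives covered the depth, mitochondrial and level thresholds, scaling, pseudocount, clustering and the estimate.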

Additional observations from a re-analysis of the deposited data

Results flagged for a closer look

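Barcodes of 1 to 100 UMIs, which are no cells and enter none of the comparisons, held S100a8 with 1089 CPM in LTS and 1087 CPM in Control, and S100a9 with 1508 CPM in LTS and 1458 CPM in Control. In cells S100a8 had 1.97 CPM in LTS and 2.08 CPM in Control, and S100a9 had 1.12 and 1.30 CPM. These values stand out because the signal lies in barcodes not taken as cells. The libraries are not independent here, since 1327 of the barcodes of over 10 and under 200 UMIs with either gene were in both (83.8% of the LTS and 88.2% of the Control ones). By size the levels differed, with 8142 CPM of S100a8 in LTS and 14350 CPM in Control at 21 to 50 UMIs. The S100a8 UMIs there were near in number, 2593 in LTS and 2423 in Control, among 318463 and 168856 UMIs in all. In the 1327 shared barcodes the level was 83138 CPM in LTS and 84454 CPM in Control, which follows in part from choosing them by S100a8 or S100a9.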

How the results depend on the processing

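Of the 42 log2 ratios, leaving the S100 and annexin genes in the clustering, Leiden resolution 0.5, at most 10% mitochondrial UMIs and a pseudocount of 1 CPM moved none beyond its counting interval. The mean of CPM per cell moved 14, median-of-ratios scaling 4, 2000 or more UMIs 1, leaving out cells rich in the tumour list 5 of 26, cluster 4 alone 2 of 8 and subtracting the carried-over estimate 24 of 34. In microglia-like cells, 5 members were 2-fold lower in LTS, 1 with the mean of CPM per cell and 0 with the estimate subtracted, which left 2 members to compare. In monocyte or macrophage-like cells the count of 0 became 1 with 2000 or more UMIs, with at most 10% mitochondrial UMIs and with a pseudocount of 1 CPM (Anxa1 each), 1 with the estimate subtracted (S100a6, higher in LTS) and 3 at 1.5-fold. In T cell-like cells the count of 2 became 1 with the rich cells left out (a share over 0.25 times the median of tumour-like cells) and 4 at 1.5-fold. With the estimate subtracted it was 3, S100a4, S100a6 and Anxa5, all higher in LTS. These are other genes than the 2 called as counted, Anxa1 and Anxa3. The log2 ratios of Anxa1 and Anxa3 stayed below 0 in all 9 alternatives. In endothelial-like cells 0 became 1 with the estimate subtracted (S100a6, lower in LTS). Members at least 2-fold above the estimate in LTS microglia-like cells went to 1 with 2000 or more UMIs, with at most 10% mitochondrial UMIs, with the profile of barcodes of 1 to 100 UMIs and at 4-fold (Anxa3 each). In Control microglia-like cells they went to 3 with rich cells left out. They went to 4 with 2000 or more UMIs and 3 at 4-fold in Control monocyte or macrophage-like cells, to 3 at 4-fold in LTS T cell-like cells, and to 7 with rich cells left out and 0 at 4-fold in Control T cell-like cells. The cause was not tested where the setting did not change the number of members compared. Leaving out rich cells removed every LTS endothelial-like cell, so that value could not be had. Over all alternatives the carried-over share of microglia-like cells ranged from 8.09% to 12.5% (LTS) and from 12.2% to 25.2% (Control), and that of T cell-like cells from 8.51% to 18.4% (LTS) and from 10.3% to 40.6% (Control). The 87 Control T cell-like cells held 210755 UMIs, which limits ratios of that class.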

Other observations

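Classes too small to compare also held these transcripts. Conventional dendritic cell-like cells (26 in LTS, 32 in Control) had 721 CPM (600 to 858) of S100a11 in LTS and 973 CPM (798 to 1174) in Control, 15.5 and 5.96 times the carried-over estimate. Anxa2 had 555 CPM in LTS and 333 CPM in Control in them, 16.0 and 4.79 times the estimate. In B cell-like cells (72 and 25) S100a4 had 111 CPM in LTS and 211 CPM in Control, 0.92 and 0.47 times the estimate, and S100a10 had 365 and 632 CPM, 2.79 and 1.10 times. In choroid plexus epithelium-like cells of LTS (64) S100a11 had 113 CPM, 1.82 times the estimate, and Anxa3 was not counted.

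Over the 12 sums of class and library with at least 50 cells, the gene with the pattern most like S100a4 was Kcnn4 (Pearson r 0.93 of log2 of CPM plus 5), followed by Runx2 and Eif3h. Most like S100a10 were Eif3h (0.96), Kcnn4 (0.95) and Runx2 (0.94), so both lists hold the same 3 genes. Most like S100a11 was Ahnak (0.88), most like Anxa2 were Ptpn12 and Vim (0.93 each), and most like Anxa5 was Myof (0.93). S100a6 was closest to Dap (0.95), Anxa1 to Aprt (0.99) and Anxa3 to Bax (0.98). S100a8 was closest to Ms4a7 (0.98) and S100a9 to Clec4d (1.00), which rests on the 2 monocyte or macrophage-like sums. These sums share 2 libraries and the RNA carried over in each, and the values are a description.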
